A study of Homo sapiens with 6 samples.

Results

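A set of 41 genes, out of 30017 listed in the RNA-seq table, had transcripts in macrophages made with CTCF and almost none in macrophages made without it. The genes were selected on their raw counts at 96 h: at most 3 counts in both libraries from CTCF-depleted cells, more than 3 counts in each of the 2 control libraries, and a control sum of 20 or more. Clustered protocadherins were left out, which removed 2 further genes. The genes were then divided by their counts at 0 h: 30 had more than 3 counts in at least 1 of the 2 libraries at 0 h, and 11 had at most 3 counts in both. Since the counts at 96 h chose the genes, their difference between control and CTCF-depleted cells is given as a description throughout.

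The cells were BLaER1-CTCF-mAID cells, a subclone of a B cell leukemia line that turns into macrophage-like cells (iMacs) when the myeloid transcription factor CEBPA is activated. In all libraries of the series, *CTCF* carried an auxin-inducible degron, a tag that leads to breakdown of the protein once auxin (indole-3-acetic acid, IAA) is added. The 3 groups of 2 biological replicates each were untreated B cells (0 h control), cells at 96 h of transdifferentiation without auxin (96 h control) and cells at 96 h of transdifferentiation with auxin (96 h CTCF-depleted). All libraries come from 1 subclone, and a line without the degron treated with auxin was not analysed here, so that effects of auxin and of CTCF loss cannot be told apart. Total counts per library were 9273470 and 12718780 at 0 h, 11695516 and 11267539 in control cells and 11001175 and 10911481 in CTCF-depleted cells.

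CTCF is a zinc finger protein that binds a long DNA motif, stops the cohesin complex as it extrudes chromatin loops and thereby sets the borders of chromatin domains. It also binds close to many promoters, and it is known for its roles at imprinted genes and at clustered gene families in which a promoter is chosen with the help of distant enhancers. The degron acts on the protein and leaves the messenger RNA in place, so that RNA-seq does not measure how far CTCF was removed. *CTCF* itself had 2235 and 2849 counts at 0 h, 2048 and 1875 counts in control cells and 2062 and 2051 counts in CTCF-depleted cells (log2 fold change 0.10, adjusted p = 0.119 in edgeR's fit). The 10 macrophage markers summed to 375 and 332 counts scaled to the library size (CPM, with edgeR's TMM factors) at 0 h. They summed to 6689 and 6479 CPM in control cells and to 5856 and 5739 CPM in CTCF-depleted cells. Most of the sum was *CEBPA* at 0 h and *LYZ* at 96 h, so it says little about the other markers. *CEBPA* had 3259 and 3954, 3331 and 3294, and 3523 and 3148 counts in the same order. *LYZ* had 3 and 6, 52779 and 47474, and 45020 and 45017 counts.

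At this depth the lost genes are low: the median control sum was 24 counts and the median sum after depletion was 3 counts, and 27 of the 41 genes had a control sum of 30 or less. In bulk RNA, fewer cells that express a gene and less RNA per cell cannot be told apart. By what the encoded proteins do, the set holds 10 adhesion, guidance and receptor proteins, 5 channels, transporters and receptors of other kinds, 5 transcription factors, 2 effectors of lymphocytes and 14 other proteins, and 5 rows that are hairpin RNAs or have no position in the annotation. This grouping was made with the values known.

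**Figure D1:**
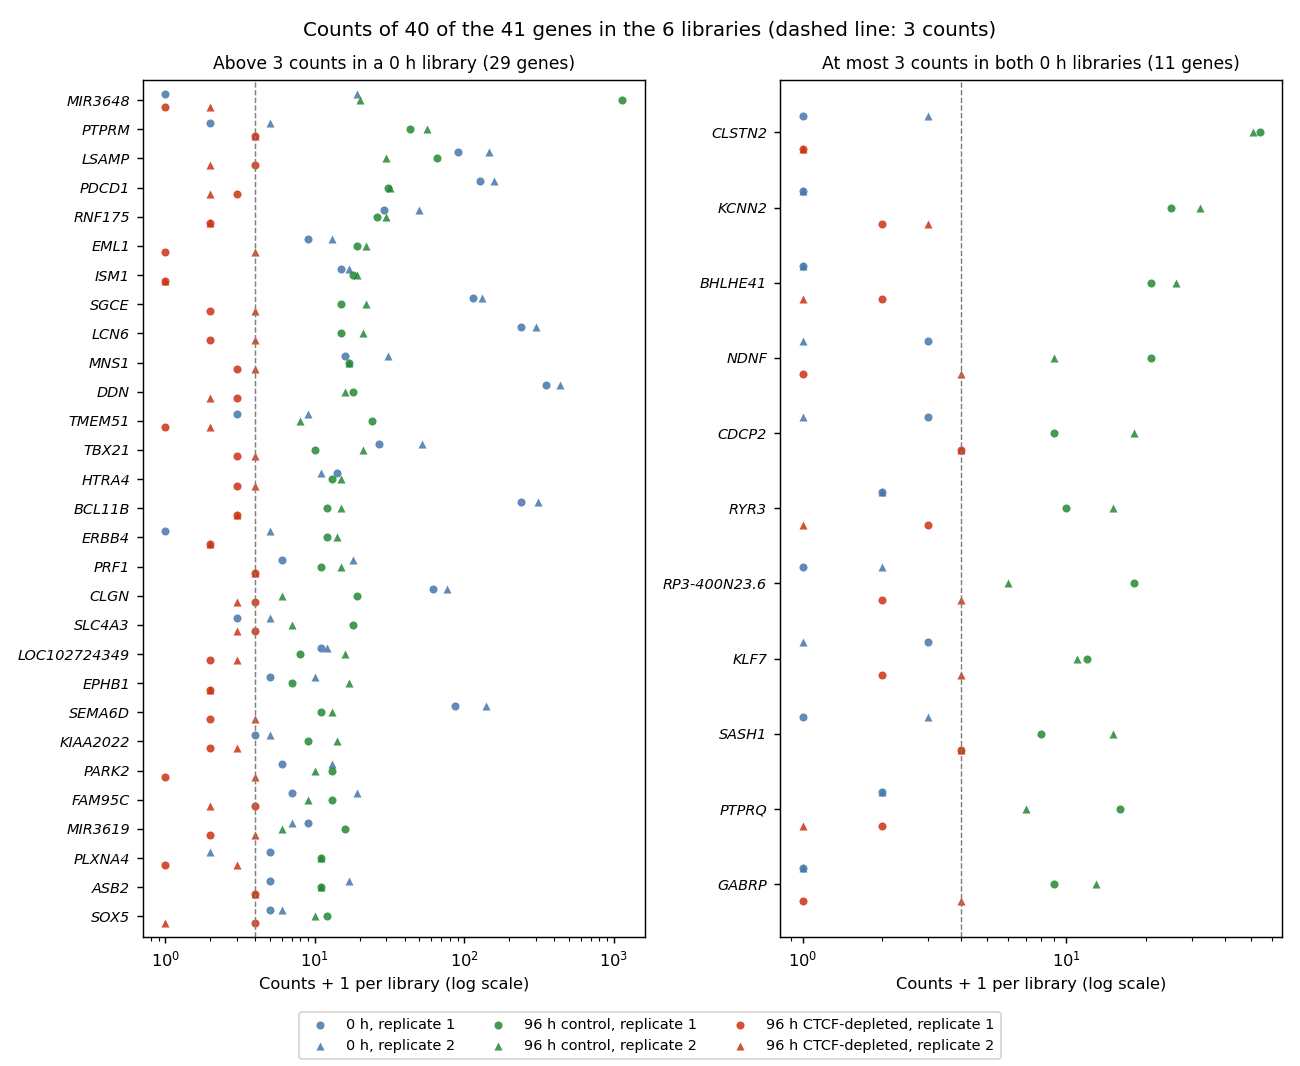
Counts plus 1 in each of the 6 libraries (log scale, circles replicate 1, triangles replicate 2) for 29 of the 30 genes with more than 3 counts in a 0 h library and the 11 genes with at most 3 counts in both. By the rule, the CTCF-depleted points lie on or left of the dashed line at 3 counts and the control points to its right; the 0 h points spread from 0 to 436 counts.

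In the adhesion, guidance and receptor group, *CLSTN2*, which encodes the synaptic adhesion protein calsyntenin-2, had 0 and 2 counts at 0 h, 53 and 50 counts in control cells and 0 and 0 counts in CTCF-depleted cells. With a floor of 3 counts over the group in place of 0, it was 33.6-fold lower after depletion. The counting error of the control libraries is not part of this value. *PTPRM*, a receptor tyrosine phosphatase that mediates adhesion between cells, had 1 and 4 counts at 0 h, 42 and 55 counts in control cells and 3 and 3 counts in CTCF-depleted cells. *LSAMP*, a neuronal adhesion protein of the immunoglobulin superfamily, was present in the starting cells with 89 and 146 counts, fell to 65 and 29 counts in control cells and had 3 and 1 counts after depletion. *ISM1*, which encodes a secreted protein, had 14 and 16 counts at 0 h, 17 and 18 in control cells and 0 and 0 after depletion. With the same floor it was 11.4-fold lower. *CLSTN2* and *ISM1* were the 2 genes of the set without a count in either CTCF-depleted library.

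Other members of this group lie on both sides of a signalling system. *SEMA6D*, a transmembrane semaphorin, had 85 and 139 counts at 0 h, 10 and 12 in control cells and 1 and 3 after depletion, and *PLXNA4*, a plexin and thus a member of the family of semaphorin receptors, had 4 and 1, 10 and 10, and 0 and 2 counts. *ERBB4*, a receptor for neuregulins, had 0 and 4 counts at 0 h, 11 and 13 in control cells and 1 and 1 after depletion. The ephrin receptor *EPHB1*, the phosphatase *PTPRQ* and the secreted factor *NDNF* had control sums of 22, 21 and 28 counts and depleted sums of 2, 1 and 3 counts.

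Among the transcription factors, the 2 patterns at 0 h were both found. *BCL11B*, a regulator of T cell development, had 238 and 312 counts at 0 h, 11 and 14 counts in control cells and 2 and 2 counts after depletion. *BHLHE41*, a basic helix-loop-helix repressor known from the circadian clock and from tissue macrophages, had 0 and 0 counts at 0 h, 20 and 25 counts in control cells and 1 and 0 counts after depletion. The first gene thus had most of its transcripts in the starting B cells, and the second was seen in control iMacs with at most 1 count elsewhere. *TBX21*, which encodes the T-bet factor of type 1 lymphocytes, had 26 and 51, 9 and 20, and 2 and 3 counts in the same order. *KLF7* and *SOX5* had control sums of 21 and 20 counts and depleted sums of 4 and 3 counts.

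*PDCD1*, which encodes the inhibitory receptor PD-1, had 127 and 157 counts at 0 h, 30 and 31 counts in control cells and 2 and 1 counts after depletion. *PRF1*, the pore-forming protein of cytotoxic cells, had 5 and 17, 10 and 14, and 3 and 3 counts. As *PDCD1*, *PRF1*, *TBX21* and *BCL11B* are best known from T and NK cells, markers of these cells were read in every library. *CD3D* had 0 counts throughout, *CD3E* had 1 count in 1 library, and *CD8A* and *GNLY* had at most 2 counts in any library. *NKG7*, the most abundant of the 5 markers, had 24 and 38 counts at 0 h, 395 and 373 in control cells and 294 and 318 in CTCF-depleted cells (log2 fold change -0.30, standard error (SE) 0.10, adjusted p = 0.0145, edgeR quasi-likelihood test). The 5 markers together summed to 2.68 and 2.93 CPM at 0 h, 35.0 and 34.7 CPM in control cells and 27.5 and 29.6 CPM after depletion. *CD3D*, *CD3E*, *CD8A* and *GNLY* were at or near 0 in all 3 groups, while *NKG7* was higher at 96 h and made up nearly all of the sum. A part of T or NK cells in the counts of the lost genes was not tested.

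Of the channels and transporters, *KCNN2*, a calcium-activated potassium channel, showed the clearest counts, with 0 and 0 at 0 h, 24 and 31 in control cells and 1 and 2 after depletion. The ryanodine receptor *RYR3*, the GABA receptor subunit *GABRP* and the anion exchanger *SLC4A3* had control sums of 23, 20 and 23 counts. Their depleted sums were between 2 and 5 counts.

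Of the other proteins, *DDN*, *LCN6* and *SGCE* were abundant in the starting cells. *DDN*, which encodes dendrin, had 348 and 436 counts at 0 h, 17 and 15 in control cells and 2 and 1 after depletion. *LCN6*, a lipocalin, had 239 and 300, 14 and 20, and 1 and 3 counts. *SGCE*, the imprinted gene for epsilon-sarcoglycan, had 114 and 131, 14 and 21, and 1 and 3 counts. In contrast, *RNF175*, a RING finger protein, kept 25 and 29 counts in control cells from 28 and 49 at 0 h, and had 1 and 1 counts after depletion. The microtubule-binding *EML1* had 8 and 12, 18 and 21, and 0 and 3 counts, and *MNS1*, a protein of cilia and sperm flagella, had 15 and 30, 16 and 16, and 2 and 3 counts. *TMEM51*, a membrane protein, had 2 and 8, 23 and 7, and 0 and 1 counts. The remaining genes of this group were *CLGN*, *HTRA4*, *PARK2*, *ASB2*, *SASH1*, *CDCP2* and *KIAA2022*, whose depleted sums lay between 3 and 6 counts.

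In 2 rows, both hairpin RNAs, the counts need a separate reading. *MIR3648*, which lies in the transcribed unit of ribosomal RNA and has near-identical copies, had 0 and 18 counts at 0 h, 1140 and 19 counts in control cells and 0 and 1 counts after depletion. Nearly all of its control counts came from 1 library; without this library its log2 fold change between depleted and control cells moved from -9.81 to -4.91. Its neighbour in the same unit, *MIR3687*, had its counts in the other control library, with 2 and 65, and the row of the ribosomal precursor RNA (*RNA45S5*) had 456 and 651 counts in control cells and 241 and 1293 in CTCF-depleted cells, so that such rows varied between replicates. *MIR3619* had 8 and 6, 15 and 5, and 1 and 3 counts. It lies within the RNA *MIRLET7BHG* on the same strand, and reads over exons of a hairpin of this length do not measure the mature microRNA. Its mature forms are shown because the row carries their name, from RefSeq (GRCh38.p14, chr22:46091059-46091080 and chr22:46091090-46091111, plus strand), with the seed at bases 2 to 8 in capitals.
hsa-miR-3619-5p: uCAGCAGGcaggcuggugcagc
hsa-miR-3619-3p: gGGACCAUccugccugcugugg
The other 3 rows of this group, *LOC102724349*, *RP3-400N23.6* and *FAM95C*, could not be joined to a gene of GENCODE release 44. They had control sums of 22, 22 and 20 counts and depleted sums of 3, 4 and 4 counts.

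Several genes lay at the limits of the rule. With a control sum of 20, *SOX5*, *ASB2*, *MIR3619*, *GABRP*, *PLXNA4* and *FAM95C* were just inside. Just outside, with control sums of 18 or 19 and at most 3 counts in each depleted library, were 12 genes, such as *GREB1L* (9 and 10 in control, 3 and 0 after depletion) and *PRLR* (8 and 10 in control, 0 and 0 after depletion). A further 20 genes were left out because a depleted library held 4 counts. Among these, *CNTNAP2*, a neuronal adhesion protein, had the highest control sum, with 29 and 29 counts in control cells, 4 and 1 after depletion and 82 and 125 at 0 h, and *ROBO2*, an axon guidance receptor, had 20 and 9, 0 and 4, and 1 and 1 counts. A depleted library with exactly 3 counts was found in 24 of the 41 genes, so that the limit fell within a continuous range.

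Within the control group, the 2 replicates of the 41 genes differed beyond counting error in 10 genes (exact binomial p below 0.05 for each gene): *MIR3648*, *LSAMP*, *TMEM51*, *CLGN*, *RP3-400N23.6*, *EPHB1*, *SLC4A3*, *NDNF*, *TBX21* and *MIR3619*. The same held for 238 of the 2695 genes with a like control level (8.83%; a control sum from 20 to 103 counts, each library above 3).

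The low-count filter of edgeR was passed by 24 of the 41 genes, 21 of the 30 with counts at 0 h and 3 of the 11 without. A gene could pass through the control libraries alone, so that a difference was built into those that passed. Genes were called in a comparison with an adjusted p below 0.01 and a log2 fold change beyond 0.6 in size. Nothing is read from calls of the lost genes between CTCF-depleted and control cells, since the rule used these counts. The other 17 genes had control sums between 20 and 30 counts and were not tested.

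The course from 0 h to 96 h in control cells is given as a description, since the rule required counts in the same control libraries and some genes passed the filter through these alone. In 9 of the 24 genes the transcripts were lower in control cells than at 0 h by the thresholds (22.9% over all genes tested), in 6 they were higher (25.4%) and in 9 the change did not pass. Nothing is read from these counts, which depend on the filter and the libraries: 14 genes were called higher without the low-count filter and 8 to 14 with 1 library left out. The falling genes were *DDN* (log2 fold change -4.55), *BCL11B* (-4.39), *LCN6* (-3.92), *SEMA6D* (-3.27), *SGCE* (-2.75), *CLGN* (-2.50), *PDCD1* (-2.16), *TBX21* (-1.33) and *LSAMP* (-1.26). Both control libraries of *DDN* lay below both libraries at 0 h, at 1.44 ± 0.0787 CPM against 34.3 ± 2.26 CPM (SD, n = 2 each). Without CTCF, the same 9 genes had log2 fold changes from 0 h of -7.84 to -3.78. That they stood further below 0 h than in control cells was set by the rule. *TBX21* did not pass with DESeq2, without replicate 2 at 0 h or without control replicate 1. Without control replicate 1, the log2 fold changes of *CLGN* and *LSAMP* were -3.68 and -1.95, and without control replicate 2 they were -1.89 and -0.82.

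The rising genes were *PTPRM* (log2 fold change 4.27), *ERBB4* (2.57), *CLSTN2*, *KCNN2*, *BHLHE41* and *MIR3648*. *PTPRM* rose from 0.202 ± 0.139 to 4.40 ± 0.980 CPM (SD, n = 2 each). *CLSTN2* rose from 0.0750 ± 0.106 to 4.65 ± 0.0334 CPM. The fitted fold changes of *CLSTN2*, *KCNN2* and *BHLHE41*, with at most 2 counts in each library at 0 h, depend on the prior count and are not given. The rise of *MIR3648* rests on the control library with 1140 counts, without which its log2 fold change was 1.15. *ERBB4* did not pass with DESeq2, without replicate 1 at 0 h or without either control replicate. The 9 genes without a call between 0 h and control were *RNF175*, *ISM1*, *MNS1*, *EML1*, *HTRA4*, *PARK2*, *PRF1*, *FAM95C* and *LOC102724349*, with log2 fold changes from -0.44 to 1.01.

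**Figure D2:**
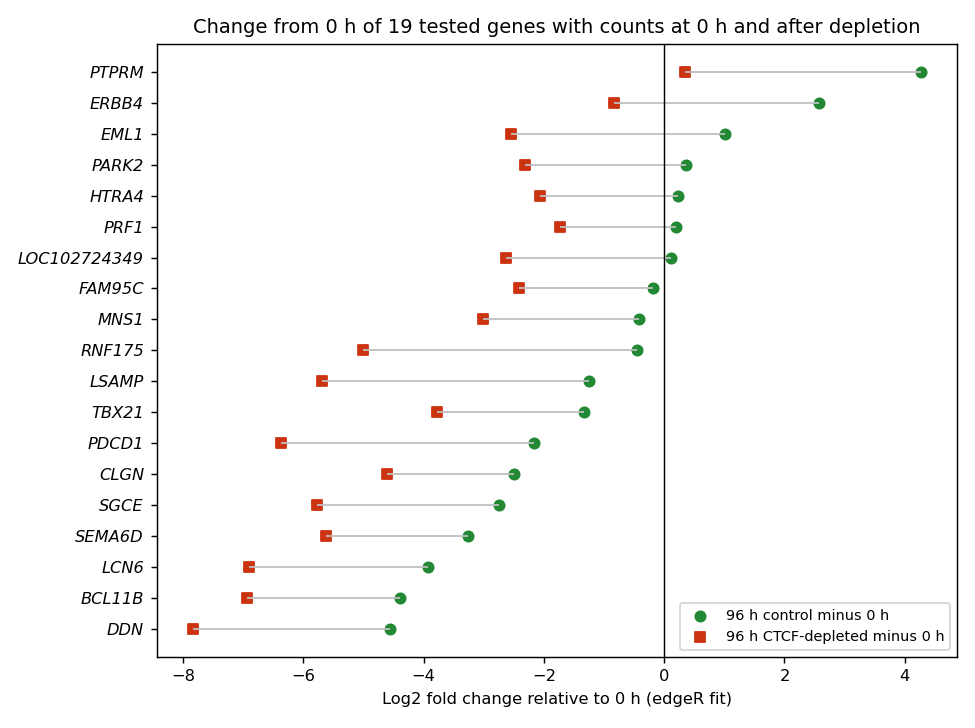
Log2 fold change relative to 0 h from the edgeR fit in 96 h control cells (green circles) and in 96 h CTCF-depleted cells (red squares) for 19 tested genes with counts at 0 h and after depletion, ordered by the control value; *MIR3648* and *ISM1* are not drawn. The control values run from -4.55 in *DDN* to 4.27 in *PTPRM*, and by the rule each depleted value lies to the left of its control value.

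As a feature that the rule did not use, gene length was read from GENCODE release 44 (hg38, the build that the authors' processing notes name). The limits of 200 kb and 500 kb and the sets compared were chosen after seeing the data, and no test was made. A position was found for 38 of the 41 genes, on 19 chromosomes, and 36 were protein-coding. The median gene body of these 36 was 101 kb, compared to 33.3 kb over 12465 protein-coding genes tested and 26.1 kb over 1584 protein-coding genes with a like control level (a control sum from 20 to 103 counts, each library above 3). Of the 36 genes, 14 (38.9%) were longer than 200 kb and 9 (25%) were longer than 500 kb. The share over 500 kb was 1.45% of the genes tested and 2.84% of the genes with a like control level. For the rule with control and CTCF-depleted libraries exchanged, which gave 33 genes, it was 0 of 24 protein-coding genes, and the median body was 40.9 kb. The 9 genes were *PARK2* (1380 kb), *LSAMP* (1337 kb), *ERBB4* (1163 kb), *SOX5* (1033 kb), *PTPRM* (840 kb), *CLSTN2* (642 kb), *SEMA6D* (590 kb), *RYR3* (555 kb) and *PLXNA4* (525 kb). The summed exons of the lost genes had a median length of 5976 bases, against 5458 bases over the genes tested and 4481 bases over the genes with a like control level. RefSeq gene bodies also placed 9 of 36 genes above 500 kb.

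Calls by gene length were also counted outside the set, as a description without a test. Of 175 tested protein-coding genes over 500 kb, with the lost genes left out, 44 (25.1%) were called lower and 11 (6.29%) higher in CTCF-depleted cells. The shares lower were 11.4% of 771 genes between 200 and 500 kb, 7.89% of 3727 genes between 50 and 200 kb and 6.42% of 7771 genes under 50 kb. At a like control level, 11 of 43 genes over 500 kb (25.6%) were lower and 6 (14.0%) were higher, compared to 56 (5.55%) and 92 (9.12%) of 1009 genes under 50 kb. From 200 to 500 kb, 12 (9.76%) were lower and 23 (18.7%) higher of 123 genes at this level. From 50 to 200 kb, 29 (7.71%) were lower and 49 (13.0%) higher of 376 genes. These genes were chosen by their control counts, and the lost genes, with their low depleted counts, were left out. Higher calls were thereby favoured, so nothing is read from their excess over lower calls in the classes under 500 kb. With DESeq2, 29 of the genes over 500 kb were called lower and 8 higher. In the course of transdifferentiation with CTCF, 82 of the 175 genes (46.9%) were called lower and 45 (25.7%) higher. Over all genes tested, 22.9% were lower and 25.4% higher in this comparison. The shares lower were 26.7% from 200 to 500 kb, 21.6% from 50 to 200 kb and 24.3% under 50 kb. Long genes were thus called lower more often with CTCF present as well.

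The 5 long genes outside the set with the smallest adjusted p among those lower were named after their values were seen. *PRKCA*, a protein kinase C, had 2246 and 2206 counts in control cells and 858 and 889 after depletion (log2 fold change -1.32, SE 0.06, adjusted p = 1.57e-25, edgeR quasi-likelihood test). The others were *STS* (-1.13), *AFF3* (-0.98), *MDGA2* (-1.54) and *ANKS1B* (-0.87). In all 5 genes, both depleted libraries lay below both control libraries. The direction was not general, since *PCDH9*, a protocadherin outside the clusters, had 88 and 100 counts in control cells and 297 and 248 after depletion (log2 fold change 1.57, SE 0.12, adjusted p = 7.01e-17, edgeR quasi-likelihood test).

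**Figure D3:**
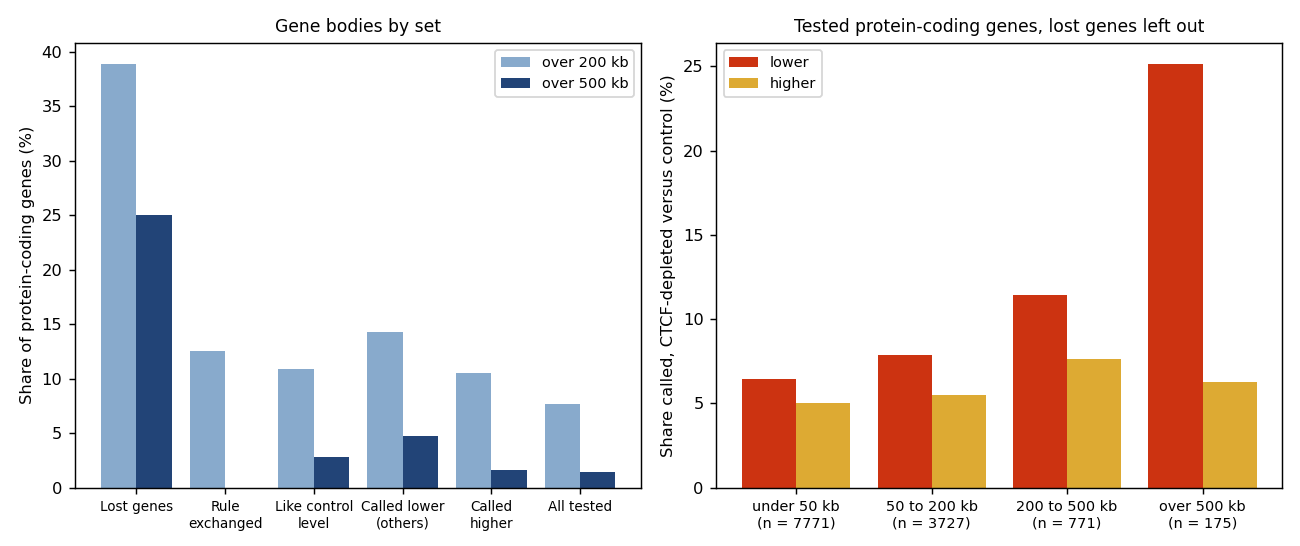
Left, share of protein-coding genes with gene bodies over 200 kb (light) and over 500 kb (dark) among the 36 lost genes and in 5 other sets. Right, share of tested protein-coding genes called lower (red) or higher (yellow) in CTCF-depleted versus control cells by gene body, lost genes left out; the share lower is 25.1% over 500 kb and 6.42% under 50 kb.

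The distance to other tested genes was read as well. For 15 of the 36 protein-coding genes (41.7%), no tested gene lay within 100 kb of the gene body, compared to 8.01% of the protein-coding genes tested, 8.65% of those with a like control level, 11.8% of the other genes called lower and 12.5% under the exchanged rule. No lost gene lay within 100 kb of another, and the closest pair was *BCL11B* and *EML1* on chromosome 14, 465 kb apart. These values were also read after the data were seen and have no test.

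Around the 22 genes with a tested neighbour, 61 other genes were tested within 100 kb. Their counts had not entered the rule. Of these neighbours, 7 (11.5%) were lower and 2 (3.28%) higher in CTCF-depleted cells, beside 7.03% and 5.41% over all genes tested, and their median log2 fold change was -0.12, against -0.03 over all genes. The 7 lower genes lay next to 6 of the lost genes, and 52 neighbours were not called. Without the neighbours that overlap a lost gene, 5 of 54 were lower and 2 higher. Without control replicate 1, 4 neighbours were called lower, and no difference from the share over all genes is read from these counts.

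The strongest of these was *PEG10*, an imprinted gene derived from a retrotransposon that starts head to head with *SGCE* on chromosome 7 (chr7:94656325-94669695, plus strand; *SGCE* at chr7:94524204-94656572, minus strand; hg38). *PEG10* had 1024 and 1264 counts at 0 h, 35 and 40 in control cells and 2 and 8 after depletion. It thus followed *SGCE* in both steps, falling from 100.2 ± 7.65 to 3.40 ± 0.435 CPM during transdifferentiation and to 0.461 ± 0.390 CPM without CTCF (SD, n = 2 each). Its log2 fold change between depleted and control cells was -2.85 (SE 0.38, adjusted p = 7.25e-09, edgeR quasi-likelihood test). *CASD1*, on the other side of *SGCE*, had 677 and 676 counts in control cells and 600 and 665 after depletion (log2 fold change -0.07, SE 0.08, adjusted p = 0.534 from edgeR). The gene bodies of *SGCE*, *PEG10* and *CASD1* overlap in the annotation, and the strand setting of the counting is not given in the sources used here.

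*TLR2*, the receptor for bacterial lipoproteins, ends 3.9 kb from the end of *RNF175* on chromosome 4. It had 59 and 60 counts at 0 h, 102 and 89 in control cells and 51 and 53 after depletion (log2 fold change -0.84, SE 0.21, adjusted p = 6.79e-04, edgeR quasi-likelihood test). Both depleted libraries lay below both control libraries. The call was lost with DESeq2 (adjusted p = 0.0427) and without control replicate 1 or depleted replicate 1 (edgeR adjusted p = 0.0299 and 0.0126). *RASSF8*, 40.1 kb from *BHLHE41* on chromosome 12, had 47 and 47, 100 and 113, and 51 and 42 counts, and its log2 fold change was -1.16 (SE 0.21, adjusted p = 7.10e-06 from edgeR). As in *BHLHE41*, the rise seen in control iMacs was not seen after depletion, where *RASSF8* was at 4.30 ± 0.603 CPM against 4.19 ± 0.935 CPM at 0 h (SD, n = 2 each).

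Near *LCN6* on chromosome 9, *FAM69B* (840 and 863 counts in control, 459 and 457 after depletion) and the noncoding *SNHG7* (614 and 527 in control, 347 and 336 after depletion) had log2 fold changes of -0.86 and -0.71. *OSBPL7*, 61.2 kb from *TBX21*, had 192 and 135 counts in control cells and 93 and 96 after depletion (log2 fold change -0.76). The calls of *OSBPL7* and *SNHG7* were lost without control replicate 1, at log2 fold changes of -0.49 and -0.60. *MIRLET7BHG*, the RNA that contains *MIR3619*, had 292 and 259 counts in control cells and 126 and 124 after depletion (log2 fold change -1.11, SE 0.13, adjusted p = 1.42e-10, edgeR quasi-likelihood test). The 2 higher neighbours were *PRKAG1*, 2.90 kb from *DDN* (285 and 284 counts in control, 455 and 422 after depletion, log2 fold change 0.65), and *CHPF*, 83.6 kb from *SLC4A3* (log2 fold change 0.89, not called with DESeq2, at adjusted p = 0.0797, nor without either control replicate or depleted replicate 1). *DDN* and *PRKAG1* thus moved in opposite directions at close range.

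**Figure D4:**
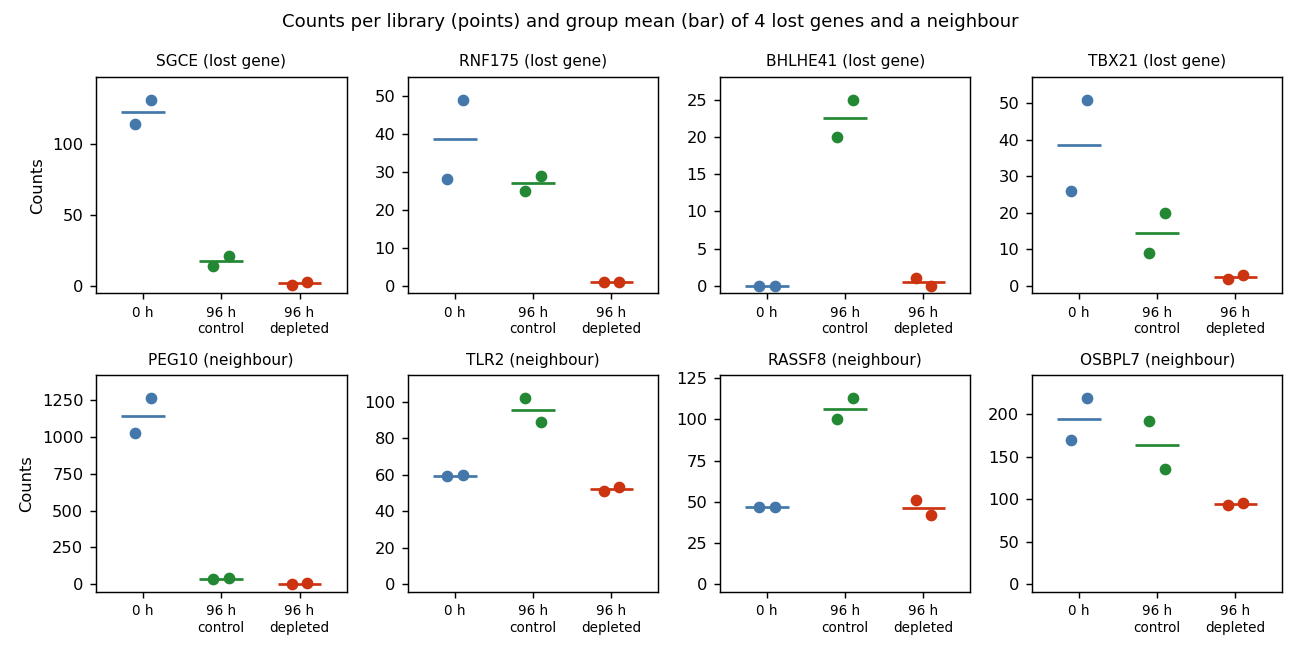
Counts per library (points) and group mean (bar) at 0 h, in 96 h control and in 96 h CTCF-depleted cells for 4 lost genes (top) and a neighbour of each (bottom), each panel on its own linear scale that includes 0. *SGCE* and *PEG10* are highest at 0 h, with 131 and 1264 counts, while *BHLHE41* and *RASSF8* are highest in control cells, with 25 and 113 counts.

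Promoters were read from RefSeq (GRCh38.p14, 250 bases before to 50 bases after each start), which matched 29 of the 41 genes. With fewer than 80% of the genes matched, a comparison of the set with other genes is void, and the counts describe the 29 promoters. The core of the CTCF motif, searched as CCANNAGNNGGC on both strands, was in 1 of the 29, that of *TBX21*, and in 322 of 10765 promoters of tested genes (2.99%) and 845 of 35116 RefSeq promoters (2.41%). A looser form, CCNNNAGNNGGC, was in 3 of the 29 (*TBX21*, *PTPRM* and *TMEM51*) and in 10.6% of all promoters, and a stricter form, CCANNAGGNGGC, in 0 of the 29 and in 1.05% of all promoters. A match is not a site of binding, and its absence speaks for these windows alone.

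The promoter of *TBX21* is shown as the 1 with the pattern, and those of *CLSTN2* and *BHLHE41* as examples of genes that rose in control iMacs and had at most 1 count in each depleted library. Each is the 250 bases before the start, with the pattern in capitals: the CTCF core in *TBX21* (chr17:47732986-47733235, plus strand), the palindromic cAMP response element TGACGTCA in *CLSTN2* (chr3:139934935-139935184, plus strand) and the E-box CACGTG in *BHLHE41* (chr12:26125038-26125287, minus strand), both of which were searched after the sequences had been seen.
TBX21: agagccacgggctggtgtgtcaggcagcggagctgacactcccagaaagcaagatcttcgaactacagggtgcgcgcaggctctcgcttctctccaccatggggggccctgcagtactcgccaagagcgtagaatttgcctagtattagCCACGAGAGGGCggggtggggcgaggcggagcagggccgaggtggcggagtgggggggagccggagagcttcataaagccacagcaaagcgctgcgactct
CLSTN2: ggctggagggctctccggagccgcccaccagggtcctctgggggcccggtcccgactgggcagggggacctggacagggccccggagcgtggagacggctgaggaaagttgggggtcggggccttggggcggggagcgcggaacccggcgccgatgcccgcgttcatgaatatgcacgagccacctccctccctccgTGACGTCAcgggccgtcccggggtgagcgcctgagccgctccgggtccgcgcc
BHLHE41: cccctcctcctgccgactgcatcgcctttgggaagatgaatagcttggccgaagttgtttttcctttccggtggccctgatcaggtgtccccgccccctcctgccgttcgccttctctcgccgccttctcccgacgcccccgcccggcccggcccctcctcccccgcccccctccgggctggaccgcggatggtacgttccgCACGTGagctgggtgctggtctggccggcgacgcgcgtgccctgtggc
The GC content of these stretches was 63.2%, 74.8% and 70.4%, with 17, 27 and 26 CpG dinucleotides. The cAMP response element was in 1 of the 29 promoters, in 3.21% of those of tested genes and in 1.85% of all RefSeq promoters, and the E-box in 5 of the 29 (*BHLHE41*, *ASB2*, *BCL11B*, *SEMA6D* and *PDCD1*), in 10.0% of those of tested genes and in 7.26% of all. Both sequences read the same on either strand.

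Further genes were read from lists made by function, with earlier results of these data known. Of 18 imprinted genes, 8 were tested, among them *SGCE*, which the rule chose. Of the other 7, 4 were lower, beside 7.03% over all genes tested: *PEG10*, *KCNQ1OT1* (log2 fold change -0.89), *CDKN1C* (-0.96) and *PLAGL1* (-0.87, not called without control replicate 2), while the other tested genes, *GNAS*, *GRB10* and *MAGEL2*, had log2 fold changes of 0.20, 0.26 and 0.95 and were not called. *GNAS* and *GRB10* were higher by less than the fold change threshold (adjusted p = 3.26e-04 and 0.00201 from edgeR). The median log2 fold change of these 7 was -0.87, compared to -0.03 over all genes tested. As *PEG10* overlaps *SGCE* and few genes were tested, nothing is read about imprinted genes as a class. Of 14 CTCF and cohesin genes in the table, 13 were tested and 1 was higher, *STAG1*, a cohesin subunit with 1326 and 1330 counts in control cells and 2810 and 2948 after depletion (log2 fold change 1.15, SE 0.05, adjusted p = 9.52e-26 from edgeR). At an unadjusted p below 0.05 of edgeR, 6 of the 13 were lower and 2 higher. Among the lower were *SMC1A* (log2 fold change -0.37), *SMC3* (-0.33) and *RAD21* (-0.22), whose changes were below the fold change threshold. The share over all genes at this unadjusted threshold is not given here, so nothing is read from such counts in this or the later lists. Among 17 chemokines and interleukins in the table, 6 were tested. *IL1B* (log2 fold change 1.43), *TNF* (1.08) and *CCL3* (0.91) were higher and *CXCL16* (-1.24) was lower. Over all genes tested, 5.41% were higher and 7.03% lower. *CXCL16* was not called with DESeq2 (adjusted p = 0.0555) nor without either control replicate or depleted replicate 1.

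Other lists gave few tested genes. Of 15 germline genes, 3 were tested and 0 called by edgeR, with 0 at an unadjusted p below 0.05 and 0 by DESeq2, and 10 had at most 3 counts in every library. Of 18 HOX genes, 2 were tested and 0 called, with 0 by DESeq2 and 0 at an unadjusted p below 0.05 of edgeR. Of 8 targets of the aryl hydrocarbon receptor, which auxin derivatives can engage, 3 were tested and 0 called by edgeR or DESeq2, with 2 at an unadjusted p below 0.05: *TIPARP* rose by less than the fold change threshold (log2 fold change 0.55, adjusted p = 7.23e-08 from edgeR) and *NFE2L2* had a log2 fold change of -0.13. *CYP1A1* had at most 5 counts in any library. None of the 41 genes other than *SGCE* was in these lists.

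The cell type markers moved in both directions without CTCF, where 7.03% of all genes tested were lower and 5.41% higher. Of 10 B cell markers, *CD22* (log2 fold change 1.47) and *VPREB3* (1.34, not called without either control replicate or without depleted replicate 1) were higher and *RAG1* (-1.94) and *VPREB1* (-0.89) were lower. Of 10 macrophage markers, *ITGAM* (1.15) was higher and *CYBB* (-0.93) and *MPEG1* (-1.11) were lower, the latter not called with DESeq2 (adjusted p = 0.0629) nor without control replicate 2 or either depleted replicate. Of 19 markers of other cells, 13 had at most 3 counts in every library. Another 5 were tested and 0 were called by edgeR or DESeq2, with 1 below an unadjusted p of 0.05 by edgeR. These 5 were not absent. Besides *NKG7*, *PDGFRB* had 2326 and 3265 counts at 0 h, 318 and 284 in control cells and 315 and 318 after depletion. In the same order, *COL1A1* had 101 and 153, 45 and 30, and 31 and 32 counts. *PPBP* had 0 and 0, 171 and 211, and 201 and 194 counts, and *CPA3* 0 and 0, 21 and 16, and 6 and 14. The part of the cell type markers in the loss of the 41 genes was not tested. The 2 protocadherins that met the counts of the rule, *PCDHB14* and *PCDHGA8*, had 10 and 12 and 6 and 14 counts in control cells and 1 and 1 and 3 and 3 after depletion.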

How the data were processed

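The 6 RNA-seq libraries came from 3 groups of BLaER1-CTCF-mAID cells, each with 2 biological replicates. The raw counts were made by the authors and deposited per gene symbol without normalization; the processing notes and methods name STAR 2.6.1d, featureCounts 2.0.6 over exons and hg38. The library kit keeps strand, but the strand setting of the counting and the annotation release are not given in the sources used here. RNA without molecular identifiers was counted, so that floors and exact binomial p values cover counting error only.

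The fit used edgeR 4.0.16 in R 4.3.3 (filterByExpr, TMM, quasi-likelihood test with condition as the only term, all 6 libraries, Benjamini-Hochberg adjustment over 14758 genes), with DESeq2 1.42.0 as an alternative. Both tools were tried on simulated counts with known changes. GENCODE release 44 was matched to the symbols by name (21889 rows) or by a RefSeq synonym (1565 rows); 6320 rows were not matched and 243 had several candidates. Promoters and microRNAs were taken from RefSeq (GRCh38.p14, the same assembly as hg38). Tables and plots were made in Python 3.11.15 (scipy 1.17.1, numpy 2.4.6, pandas 2.3.3, matplotlib 3.10.9).

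Folds against a group without counts used a floor of 3 counts over the group. The genes, the lists and the tests were chosen with earlier results of these data known. Genes named are the 12 with the highest control sums among those above 3 counts at 0 h, all 11 of the other class, those in a list, with a described promoter or neighbour, or at a limit of the rule, neighbours and list genes past the thresholds; other genes of the set are named to account for each, and further genes were picked with their values known. The lists were germline, HOX, imprinted, aryl hydrocarbon receptor target, chemokine and interleukin, and CTCF and cohesin genes. With 2 libraries a group, no test of outlying samples was made. A gene of the set and a further list are not reported here. Other assays of the study were not analysed here.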

Additional observations from a re-analysis of the deposited data

How the results depend on the processing

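The number of lost genes depends on the rule. It was 41 (11 with at most 3 counts at 0 h and 30 above), and it moved to 9 (3 and 6) with a limit of 1 count, to 95 (26 and 69) with a limit of 5 counts, to 155 (66 and 89) with a control sum of 10 or more and to 8 (3 and 5) with a control sum of 40 or more. On counts scaled to the mean total it was 16 (5 and 11), since a count of 3 can be scaled above 3. With a limit of 3.5 on the scaled counts, which was not planned, it was 35 (10 and 25), all among the 41. With 1 library left out it ranged from 54 to 94 genes, those with at most 3 counts at 0 h from 12 to 28 and those above from 33 to 66. Without either control library it was 54, with the limit lowered to 10 counts in the remaining one, so that both choices changed together.

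Between CTCF-depleted and control cells, where the rule favours a call and nothing is read from it, 13 lost genes passed the thresholds with DESeq2 in place of 21. From 0 h to control, 14 lost genes rose without the low-count filter in place of 6, and 8 to 14 with 1 library left out. Neighbours called lower numbered 7 of 61, 17 of 132 within 250 kb and 4 to 8 with 1 library left out. Neighbours called higher numbered 2 of 61, then 1 with DESeq2, 1 of 35 within 50 kb, 5 of 132 within 250 kb and 1 to 3 with 1 library left out. The looser CTCF pattern was in 3 promoters and the stricter in 0, in place of 1. Among genes over 500 kb, 29 were lower with DESeq2 in place of 44.

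With the replicate number as a term (replicate block), 1033 genes were lower in CTCF-depleted cells.

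For single genes, over all alternatives together, 697 values were unchanged in call, including genes without a call, 71 became weaker and 2 stronger. These values include the lost genes between CTCF-depleted and control cells, where the rule favours a call, so nothing is read from the tally.

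The genes were selected on the libraries in which they are described, and most counts are low. The gene length, isolation, control level and exchanged comparisons were chosen after the data were seen. Symbols without a match, among them 3 lost genes, have no length or neighbours here, and reads of overlapping genes cannot be told apart. The data come from 1 subclone with 2 libraries a group, and auxin was given only with the degron. The cause was not tested.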
